A study of Capra hircus with 6 samples.

Results

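Connexins are the proteins that form gap junctions, and 9 connexin genes were followed in RNA sequencing of the goat medio-basal hypothalamus. These were GJA1, GJA4, GJA5, GJB2, GJB6, GJB7, GJC1, GJC3 and GJD2, found by their symbols in a table of read counts, and all 9 had a row. The table held 28907 rows, 20 of them named as connexins, so 11 further connexin rows lay outside the group. The 9 genes were selected on their family name with their counts and CPM in these same 4 libraries already known. Their levels and differences are therefore given as a description, with no test.

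The medio-basal hypothalamus is the base of the brain above the pituitary and holds the arcuate nucleus and the median eminence. The tissue came from adult Alpine goats of 2 groups compared here, with 5 goats in the January follicular phase, when the ovary cycles, and 8 goats in the anestrus of mid-May, when it does not. Season and ovarian state thus differ together between the groups, and no other treatment or genotype is named. RNA of the goats of a group was mixed at random in equal amounts into 2 pools, each sequenced as 1 library, with the number of goats per pool not stated. They are called January (follicular) and May (anestrus) pools below, and pairs of values are in the order pool 1, pool 2. The p-values with all pools accordingly measure the spread between 2 pools per group, not between goats. With a pool left out, 1 group held 1 pool, and such fits took their spread from the other group alone. Passing or failing there is not comparable with the fit on all pools. The luteal-phase libraries were not analysed here.

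A connexin subunit crosses the membrane several times, and a ring of subunits makes a hemichannel. Hemichannels of neighbouring cells dock and let ions and small metabolites pass from cell to cell. In brain, astrocytes are joined into a network mainly by Cx43 (GJA1) and Cx30 (GJB6), oligodendrocytes use a set of their own, and some neurons form electrical synapses with Cx36 (GJD2). Vessel walls use Cx37 (GJA4), Cx40 (GJA5) and Cx45 (GJC1). Tanycytes, the glial cells that line the floor of the third ventricle, are also known to be coupled through Cx43.

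The libraries held 14553821 to 25292678 counts. All 8 genes used to check the tissue, among them NKX2-1, POMC, AGRP, KISS1 and TAC3, had counts in these libraries and were kept for the fit. Their summed level was 320 and 152 CPM in the January pools and 422 and 205 CPM in the May pools, so in sum pool 1 stood above pool 2 in both groups. Most of that gap was POMC, at 170 and 37.8 CPM in January and 260 and 92 CPM in May. POMC is also in the pituitary list below. NKX2-1, alone of the 8, was higher in January pool 2 (20.2 and 26 CPM). Levels are counts relative to the library total (CPM) on totals scaled by TMM, and folds compare the groups for 1 gene at a time. Transcript lengths were not used here, so levels of different genes are not compared, and ratios to marker genes are compared between pools only. Log2 fold changes are follicular minus anestrus, each with its standard error (SE). All 9 connexins passed the filter on low counts that left 16756 genes. By edgeR's quasi-likelihood test, 34 of these genes (0.203%) had an adjusted p under 0.05, of which 2 were higher in the follicular phase (0.0119% of genes) and 32 higher in anestrus (0.191%). Of the 9 connexins, 1 was among them, GJB7. It was likewise the single connexin of the 9 called under 11 of 13 other settings (other scalings, filters and tests, a replicate block, or a pool left out), and without May pool 2 it was called together with GJA1. Without January pool 1 the table gave 4 calls, and none of the 9 was called. Nothing is read from these counts, since the genes were chosen with this contrast in view.

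In CPM, 4 of the 9 connexins lay higher in both January pools than in both May pools (17.6% of all genes tested did so), and 1 lay higher in both May pools (20.7% of all genes). Their log2 fold changes ran from -1.76 to 0.75 with a median of 0.10, beside a median of 0.00 over all genes tested, with quartiles at -0.20 and 0.22. The group of 9 did not move as 1 block. GJA1, GJB6 and GJD2 had fitted levels 1.49-fold to 1.69-fold higher in the follicular phase, GJB7 was 3.38-fold higher in anestrus, and the other 5 differed by 1.21-fold or less.

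**Figure D1:**
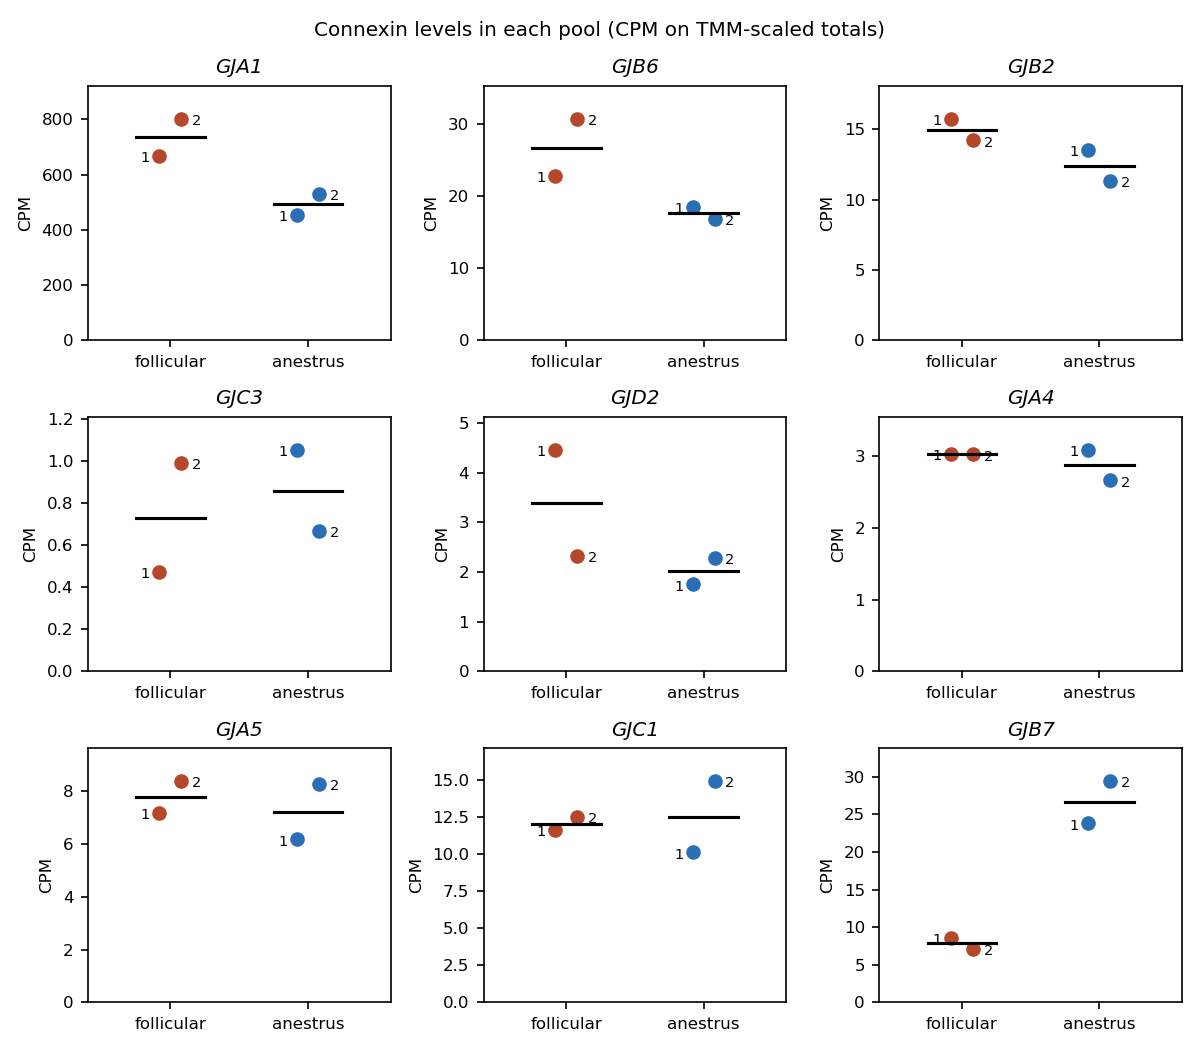
CPM (y axis, from 0) of each of the 9 connexins in follicular pools 1 and 2 (red) and anestrus pools 1 and 2 (blue), with a black line at the group mean of 2 pools. GJA1, GJB6, GJB2 and GJD2 have both follicular pools on top, GJB7 has both anestrus pools on top at 23.8 and 29.4 CPM, and the pools of the groups are interleaved for GJA4, GJA5, GJC1 and GJC3.

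GJA1 encodes Cx43, the main gap junction protein of astrocytes. Its level was 669 and 801 CPM in the January pools against 455 and 530 CPM in the May pools. The lowest January pool thus lay above the highest May pool. The means were 735 ± 93.1 CPM in January and 492 ± 52.9 CPM in May (SD, n = 2 pools each), a 1.49-fold difference (log2 fold change 0.58, SE 0.17). With 6488 to 17003 counts per library, the counting interval of a pool was narrow, for instance 444 to 466 CPM in May pool 1 (exact Poisson, 95%). The distance between pools of a group was therefore wider than counting error. Leaving out 1 pool at a time moved the log2 fold change between 0.44 and 0.74.

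GJB6 encodes Cx30, the other main connexin of astrocytes. It was measured at 22.8 and 30.7 CPM in the January pools against 18.5 and 16.9 CPM in the May pools. The January pools lay above the May pools, and January pool 2 was the highest of the 4, as it was for GJA1. The means were 26.8 ± 5.62 and 17.7 ± 1.11 CPM (SD, n = 2 pools each), 1.51-fold higher in the follicular phase (log2 fold change 0.59, SE 0.25). Without January pool 2 that log2 fold change was 0.36, and without January pool 1 it was 0.81.

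The genes that mark astrocytes lay on the same side as these connexins. All 10 measured astrocyte markers had both January pools above both May pools, with a median log2 fold change of 0.55, and their summed level was 11300 to 12000 CPM in the January pools and 7010 to 7150 CPM in the May pools. None was at 0. One of the 10, GFAP, the intermediate filament of astrocytes, passed the test and rose from 2400 ± 97.2 CPM in anestrus to 4820 ± 18.2 CPM in the follicular phase (log2 fold change 1.01, SE 0.15, adjusted p = 0.0316, edgeR, SD over n = 2 pools each). Without January pool 1 it did not pass (log2 fold change 1.03, adjusted p = 0.478, edgeR). AQP4, the water channel of astrocyte endfeet, had a log2 fold change of 0.54 (SE 0.19, adjusted p = 0.413, edgeR), and SLC1A3, a glutamate transporter, had 0.54 (SE 0.17, adjusted p = 0.335, edgeR). Neither passed with all pools. Without May pool 2 the log2 fold change of AQP4 was 0.74, and without May pool 1 it was 0.39. SLC1A3 passed under none of the other settings, and AQP4 under none that kept all pools. In such tissue RNA, more cells of a type and more RNA per cell cannot be told apart. The part of cell makeup in the level of any of the 9 connexins was not tested, and the marker levels are given beside each.

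Set against the astrocyte markers of the same pool, both astrocyte connexins were nearly level between the groups. The log2 ratio of GJA1 to the geometric mean of the 10 markers was 0.65 and 0.81 in the January pools against 0.75 and 0.96 in the May pools. The group difference of that ratio was -0.12, where the difference of GJA1 alone was 0.58. For GJB6 the ratio was -4.23 and -3.89 in the January pools against -3.87 and -4.01 in the May pools. Its difference was also -0.12, beside 0.58 for GJB6 alone. The pools of the groups overlapped in both ratios. Both differences were smaller than the SD of a difference between single pools of the 2 groups (0.19 for GJA1 and 0.25 for GJB6, n = 2 pools each). That SD is wider than the SD of a difference between group means.

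**Figure D2:**
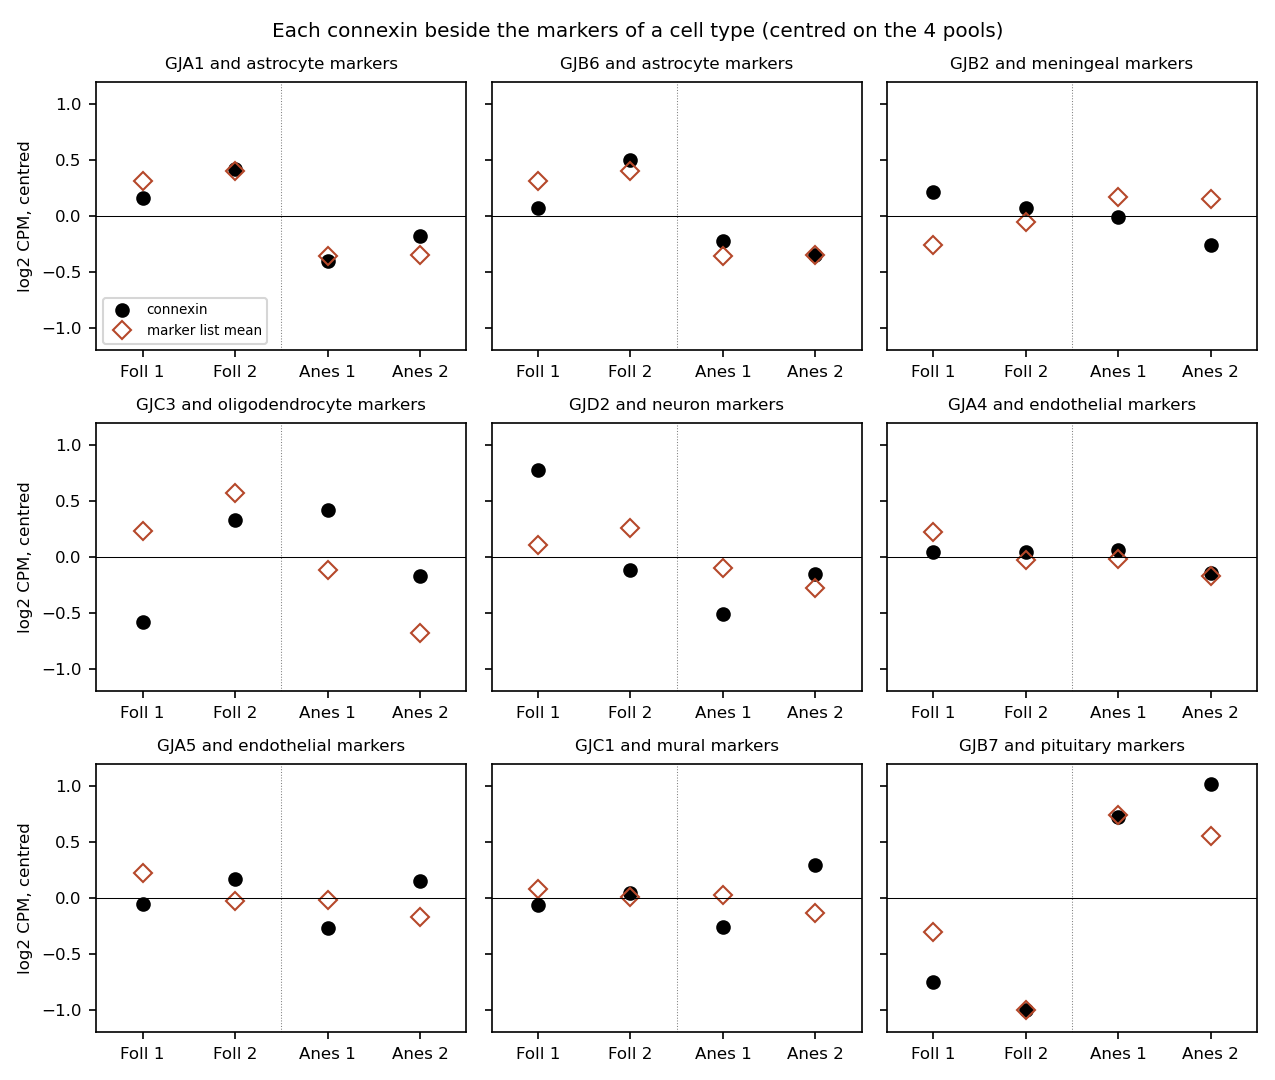
Log2 CPM centred on the mean of the 4 pools (y axis) in each pool (x axis), for each connexin (filled circles) and for the mean of the markers of a cell type (open diamonds). For GJA1 and GJB6 circles and diamonds lie on the same side of 0 in every pool, while GJB2 and the meningeal markers differ in direction. The pituitary list was set beside GJB7 after its values had been seen.

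GJB2 encodes Cx26, which in brain is found mainly in the leptomeninges. It was at 15.7 and 14.2 CPM in the January pools against 13.5 and 11.3 CPM in the May pools. The groups did not overlap, but January pool 2 and May pool 1 were close together and within each other's counting intervals (12.5 to 16.1 and 11.6 to 15.5 CPM, exact Poisson, 95%). The means were 15 ± 1.04 and 12.4 ± 1.51 CPM (SD, n = 2 pools each), with a log2 fold change of 0.27 (SE 0.27). GJB2 and GJB6 lie close together in the goat genome, with 1 provisional locus between them in the order of the RefSeq gene table (ARS1.2 assembly), and GJA3, next on the other side of GJB2, had 0 to 5 counts per library.

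Meningeal markers lay on the other side. Of 10 measured, 9 had a negative log2 fold change and the median was -0.38, with a summed level of 1230 to 1370 CPM in the January pools and 1790 to 1900 CPM in the May pools. None was at 0 and none passed the test. DCN, the matrix proteoglycan decorin, had means of 292 ± 40.8 CPM in January and 516 ± 21.8 CPM in May (SD, n = 2 pools each, log2 fold change -0.82, SE 0.16, adjusted p = 0.115, edgeR), and LUM, lumican, had a log2 fold change of -0.60 (SE 0.16, adjusted p = 0.278, edgeR). DCN passed without a count filter (adjusted p = 0.0018, edgeR). It also passed with the DESeq2 Wald test and with a replicate block by titles. LUM passed under no setting that kept all pools, and its log2 fold change without May pool 1 was -0.58. The log2 ratio of GJB2 to these markers was -2.29 and -2.63 in the January pools against -2.94 and -3.17 in the May pools. Both January pools lay higher, and the difference of the ratio was 0.59, beside 0.28 for GJB2 alone. The rest came from the markers, which were lower in January.

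Oligodendrocytes use connexins of their own. GJC3, which belongs to this set in rodents, was close to the detection limit, with 12 and 17 counts in the January pools against 15 and 12 in the May pools. This gave 0.472 and 0.988 CPM, and 1.05 and 0.666 CPM. Counting error alone spanned 0.244 to 0.825 CPM in January pool 1 (exact Poisson, 95%). The log2 fold change of -0.25 had an SE of 0.64 and changed sign without January pool 1 (0.23) and without May pool 1 (0.09). At this depth only a large difference would be detectable.

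GJB1 (Cx32), another connexin of oligodendrocytes, was outside the 9 and was tested. GJB1 was at 5.90 and 7.44 CPM in the January pools against 4.28 and 2.11 CPM in the May pools (log2 fold change 1.07, SE 0.41, adjusted p = 0.482, edgeR). It did not pass, and it was lowest in May pool 2. Without May pool 1 the log2 fold change was 1.65, and without May pool 2 it was 0.68. GJB1 overlaps BRS3, a bombesin receptor gene, in the RefSeq gene table. The strand setting of the counting is not stated, so reads of GJB1 and BRS3 may not be fully apart. BRS3 itself was at 7.16 and 7.55 CPM in the January pools against 3.72 and 4.94 CPM in the May pools.

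All 13 measured myelin and oligodendrocyte markers had both January pools above both May pools, and none of them passed the test. Their median log2 fold change was 0.76, and their summed level was 3710 to 5000 CPM in the January pools and 2030 to 3130 CPM in the May pools, with no marker at 0. MOG, a protein of the myelin surface, had a log2 fold change of 0.76 (SE 0.25, adjusted p = 0.395, edgeR). MOG passed without a count filter (adjusted p = 0.0112, edgeR). Its log2 fold change was 1.08 without May pool 1 and 0.53 without May pool 2. Centred on the 4 pools, the list's mean log2 CPM was lowest in May pool 2 at -0.68, the pool that was also lowest for GJB1. That was not particular to this list. The neuron (-0.28), microglia (-0.26), endothelial (-0.17) and mural (-0.13) marker lists were also lowest in May pool 2. The astrocyte, meningeal, pituitary, and ependyma and tanycyte lists were not. The log2 ratio of GJC3 to these markers was -7.92 and -7.19 in the January pools against -6.42 and -6.52 in the May pools. Its difference was -1.08, beside -0.29 for GJC3 alone, so most of it came from the markers. The ratio of each pool also rests on few GJC3 counts.

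GJD2 encodes Cx36, the connexin of electrical synapses between neurons. It was at 4.45 and 2.32 CPM in the January pools against 1.75 and 2.28 CPM in the May pools. The groups narrowly did not overlap. Only January pool 1 stood clear of the rest, with a counting interval of 3.67 to 5.35 CPM (exact Poisson, 95%), while January pool 2 and May pool 2 were nearly equal. The means were 3.39 ± 1.5 and 2.01 ± 0.37 CPM (SD, n = 2 pools each), a log2 fold change of 0.75 with an SE of 0.46. Without January pool 1 it was 0.22, and without January pool 2 it was 1.14.

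Neuron markers were also on the follicular side, with 11 of 11 positive, a median log2 fold change of 0.38 and none passing the test. Their summed level was 3880 to 4350 CPM in the January pools and 3070 to 3450 CPM in the May pools, with none at 0. SYT1, a calcium sensor of synaptic vesicles, had a log2 fold change of 0.47 (SE 0.16, adjusted p = 0.404, edgeR). The log2 ratio of GJD2 to the neuron markers was -5.64 in January pool 1 and -6.72 in January pool 2, against -6.78 and -6.22 in the May pools. The groups overlapped in this ratio, and its difference of 0.32 was -0.23 without January pool 1.

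The connexins of vessel walls had similar means in both groups. GJA4 (Cx37), of endothelium, was at 3.03 and 3.02 CPM in the January pools against 3.08 and 2.66 CPM in the May pools (log2 fold change 0.08, SE 0.40). GJA5 (Cx40), of arterial endothelium, was at 7.16 and 8.37 CPM in the January pools against 6.17 and 8.27 CPM in the May pools (log2 fold change 0.10, SE 0.32). GJC1 (Cx45), of smooth muscle and pericytes, was at 11.6 and 12.5 CPM in the January pools against 10.1 and 14.9 CPM in the May pools (log2 fold change -0.05, SE 0.30). The groups overlapped for all 3.

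The May pools differed from each other more than the group means did in GJA4, GJA5 and GJC1. The log2 fold change of GJA5 was -0.10 without May pool 1 and 0.37 without May pool 2, and was also below 0 without January pool 2 (-0.01). That of GJC1 was -0.31 without May pool 1, 0.30 without May pool 2 and 0.01 without January pool 1. With these standard errors, differences of the size seen in GJA1 could not be told from none for the vessel connexins.

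The vessel markers were close to level as well, with median log2 fold changes of 0.17 for 10 endothelial and 0.08 for 10 mural markers, none of which passed. Their summed levels were 257 to 272 CPM (endothelial) and 438 to 490 CPM (mural) in the follicular phase, and 227 to 267 CPM and 425 to 456 CPM in anestrus, and no marker was at 0. CLDN5, a tight junction protein of brain endothelium, had a log2 fold change of 0.19 (SE 0.59, adjusted p = 0.969, edgeR), and PDGFRB, a receptor of pericytes, had 0.13 (SE 0.18, adjusted p = 0.923, edgeR). Relative to their markers, GJA4, GJA5 and GJC1 had group differences of -0.10, -0.06 and -0.11 on the log2 scale, each with overlapping groups.

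GJB7 encodes Cx25, a connexin of the beta family whose sites of use are less well described. It was at 8.54 and 7.15 CPM in the January pools against 23.8 and 29.4 CPM in the May pools. The highest January pool was far below the lowest May pool, and the counting intervals of 7.44 to 9.76 and 21.3 to 26.4 CPM for these pools were well apart (exact Poisson, 95%). The means were 7.84 ± 0.985 CPM in January and 26.6 ± 3.96 CPM in May (SD, n = 2 pools each), a level 3.38-fold higher in May (log2 fold change -1.76, SE 0.27). Leaving out 1 pool at a time gave -1.90 to -1.55. In the RefSeq gene table no gene overlaps GJB7, whose neighbours are SMIM8 and ZNF292.

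**Figure D3:**
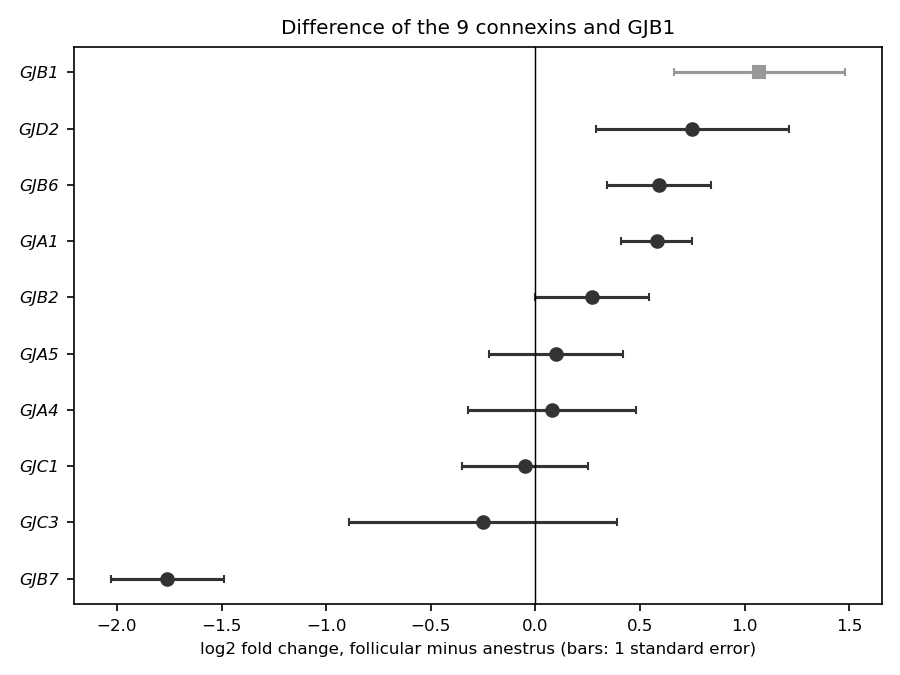
Log2 fold change, follicular minus anestrus (x axis), with 1 standard error either side, for the 9 connexins (black circles) and for GJB1 (grey square). GJB7 lies at -1.76, apart from the other 9, which lie between -0.25 and 1.07.

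Most pituitary and pars tuberalis genes were on the same side as GJB7. Of 9 with a row, 8 were tested, 6 of these had a negative log2 fold change and the median was -0.95, and 2 passed, both higher in anestrus. TSHB, the beta subunit of thyrotropin, had a log2 fold change of -7.45 (SE 0.30, adjusted p = 6.66e-06, edgeR). CGA, the alpha subunit that thyrotropin and the gonadotropins share, had -1.30 (SE 0.18, adjusted p = 0.0206, edgeR), and did not pass without January pool 1 (log2 fold change -1.43, adjusted p = 0.256, edgeR). LHB and GNRHR went the other way, at 1.48 (SE 0.74) and 1.57 (SE 1), with overlapping groups. The summed level of the list was 4510 to 5690 CPM in the January pools and 11500 to 14900 CPM in the May pools, with none at 0. Most of that sum was CGA, at 5230 and 4290 CPM in the January pools and 13100 and 10300 CPM in the May pools. The part of pituitary tissue in the level of GJB7 was not tested.

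For 4 of the connexins, the genes with the most similar pattern over the 4 pools were found among 11712 genes with a mean of at least 5 CPM, by the root mean square difference of centred log2 CPM. Those nearest to GJA1 were ARAP2, KCNQ3, LUZP2, CALN1 and SCN2A, at 0.014 to 0.0252 log2 units. Nearest to GJD2 were NR4A2, SIK1, COQ10B, HR and DDIT4L, at 0.108 to 0.141. Nearest to GJC3 were CCK, MRPS18C, IFI6, C5AR1 and POU2F2, at 0.0478 to 0.126, although the counting intervals of its 4 pools overlapped. Nearest to GJB7, added after its values were seen, were BLNK, ATP8B4, SLCO1C1, SUV39H2 and SLC7A8, at 0.136 to 0.177. SLCO1C1, a thyroid hormone transporter, was at 31.1 and 32.8 CPM in the January pools against 79.3 and 102 CPM in the May pools. With 4 pools and so many genes, close matches of this kind are easily found.

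Reads of all 20 connexin rows summed to 757 and 897 CPM in the January pools against 545 and 622 CPM in the May pools. Without GJA1 the sums were 88.0 and 96.0 CPM, and 90.2 and 92.4 CPM. Without GJA1 and GJB7 they were 79.5 and 88.8 CPM in January against 66.4 and 63.0 CPM in May, so the remaining connexins together also lay higher in both January pools, while GJB7 lay higher in both May pools. Of the connexin rows outside the 9, GJD4 had no count in any library. GJA3, GJA9, GJA10, GJB5 and GJD3 had at most 13 counts in a library and did not pass the filter. GJB1 had an unadjusted p under 0.05 in edgeR (8.55% of all genes tested had one), and neither DESeq2 nor limma-voom called it.

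Pannexins form large membrane channels related in shape to hemichannels. PANX1 had a log2 fold change of -0.05 (SE 0.20, adjusted p = 0.975, edgeR), which was 0.01 without January pool 1 and 0.11 without May pool 2. PANX2 was at 12 and 8.54 CPM in the January pools against 9.88 and 3.28 CPM in the May pools (log2 fold change 0.65, SE 0.48, adjusted p = 0.794, edgeR). Like GJB1 it was lowest in May pool 2. Its log2 fold change was 1.65 without May pool 1 and 0.10 without May pool 2. PANX3 had 0 to 3 counts per library.

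Genes that traffic, anchor or degrade connexins were tested as a list of 20, of which 19 were measured. None passed in edgeR, and the median log2 fold change was -0.06. An unadjusted p under 0.05 in edgeR was seen for 2 of them, beside 8.55% of all genes tested. TJP1, the ZO-1 scaffold that binds the tail of Cx43, was at 136 and 136 CPM in the January pools against 143 and 161 CPM in the May pools (log2 fold change -0.16, SE 0.16, adjusted p = 0.863, edgeR). The genes with an unadjusted p under 0.05 are named here after their values were seen. ERP29, an endoplasmic reticulum protein that stabilises Cx43 before assembly, had a log2 fold change of -0.54 (SE 0.17, adjusted p = 0.341, edgeR), and HEPACAM, an adhesion protein of astrocyte junctions, had 0.47 (SE 0.15, adjusted p = 0.371, edgeR). DBN1, the actin-binding protein drebrin, and MLC1, a membrane protein of astrocytes, were called only in a fit with a May pool left out, as was ERP29.

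Genes for the potassium, glucose and lactate handling that astrocyte networks serve gave no call with all pools among 12 measured. Of these, 10 were positive and the median log2 fold change was 0.18. An unadjusted p under 0.05 in edgeR was found for 2, beside 8.55% of all genes tested. KCNJ10, the potassium channel of astrocytes, was at 127 and 163 CPM in the January pools against 106 and 110 CPM in the May pools (log2 fold change 0.43, SE 0.18, adjusted p = 0.524, edgeR). PYGB, the brain form of glycogen phosphorylase, was called only with May pool 1 left out. Over the 33 genes of these 3 lists that were tested, DESeq2 and limma-voom called 0 as well.

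**Figure D4:**
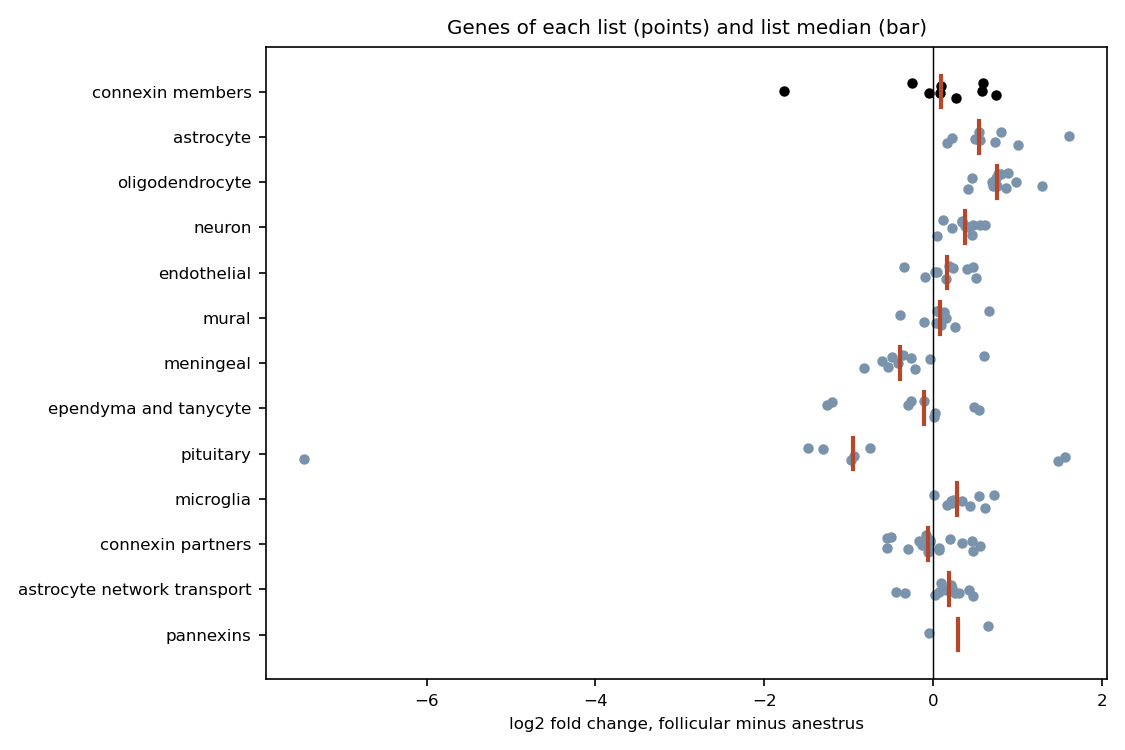
Log2 fold change, follicular minus anestrus (x axis), of each gene of the lists (points, spread vertically for legibility) with the list median as a red bar. The 9 connexins (top row) spread from -1.76 to 0.75, the astrocyte and oligodendrocyte markers lie entirely above 0, and the pituitary list holds TSHB at -7.45.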

How the data were processed

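The authors deposited raw read counts per gene, whole numbers with no normalization, per the file headers. TriReagent extraction and the stranded Truseq mRNA kit were used, per the labels' protocols. The tools included featureCounts 2.0.0 as well as TopHat2 2.1.1 and Bowtie2 2.3.5.1, per the submitters' processing notes. Not given in the sources used here are genome build, strand setting and the handling of multi-mapping reads. The sample titles number the May pools the other way round from the library names, which were used because the columns carry them.

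Genes were kept with filterByExpr (minimum count 10, minimum total 15), TMM-scaled, and fitted in edgeR 4.0.16 under R 4.3.3 (glmQLFit, robust, 2 residual degrees of freedom, 2-sided, Benjamini-Hochberg over all genes). The SE of a log2 fold change is its size divided by the square root of the F statistic. Centred log2 CPM used a prior count of 2, and marker ratios added 0.5 CPM to the markers. On simulated counts for 16756 genes, 30% of 2-fold and 100% of 4-fold changes were recovered, with 4 of 134 calls false. In the 4 pools, the median SE of a log2 fold change was 0.26, beside 0.64 for GJC3 and 1.04 for POMC. The simulation gave every gene the same common spread. Recovery and false calls were therefore not tested for genes of such wide spread, nor with a spread that varies by gene. Alternatives used limma 3.58.1 and DESeq2 1.42.0. Of 160 list entries, 155 matched a row by symbol or through RefSeq. The 9 connexins and all lists were chosen with earlier results of these data known. Named genes were all connexins, called list genes and 15 set genes, with exceptions stated, and the results of some of them are not reported here. Intervals cover counting error only.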

Additional observations from a re-analysis of the deposited data

How the results depend on the processing

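With all pools, 34 genes were called. The count was 300 without a count filter (127 higher in the follicular phase and 173 higher in anestrus), 146 with the DESeq2 Wald test, 90 with a replicate block by library names and 130 with a replicate block by titles. The labels name nothing that same-numbered pools shared beyond the number. Their deviations from the group means correlated at 0.26 by library names. With 2 pools per group the value by titles is then fixed at -0.26. The number of cell type markers called, 4 with all pools, was 17 without a count filter, 9 with the DESeq2 Wald test and 16 with the replicate block by titles. Leaving out 1 pool at a time gave 4 to 810 calls in all (4 and 95 with January pool 1 or 2 left out, 810 and 583 with May pool 1 or 2 left out), 1 to 30 cell type markers, 0 to 2 other connexins and 0 to 4 genes of the pannexin, partner and transport lists (PANX2, DBN1, MLC1 and PYGB without May pool 1, ERP29 without May pool 2). The number of the 9 connexins with a positive log2 fold change, 6 with all pools, was 5 to 8, and the number of 8 marker ratios higher in the follicular phase, 2 with all pools, was 2 to 4. Without January pool 1, PANX1, CLDN5 and PDGFRB changed sign, to 0.01, -0.06 and -0.04, and without May pool 2 PANX1 and CLDN5 did so, to 0.11 and -0.43. Over the fits that left out a pool, PANX1 ran from -0.16 to 0.11, CLDN5 from -0.43 to 1.38 and PDGFRB from -0.04 to 0.29. The cause of these shifts was not tested, and fits with a pool left out took their spread from 1 group alone. GJC3 gave no value under the filter on a mean of 1 CPM. Scaling by DESeq2 size factors or by library totals moved the median of all genes by 0.02 on the log2 scale and changed the sign of none of the 9 connexins. With 12 to 17 counts per library, depth limits GJC3 most.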

Other observations

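Of the other cell types that share this tissue, microglia, which have few gap junctions at rest, had 10 of 10 measured markers with a positive log2 fold change, none called, and a median of 0.29. Markers of ependyma and tanycytes did not move as 1 list, with 4 positive and 5 negative of 9 tested and a median of -0.11. DIO2, the tanycyte deiodinase that activates thyroid hormone, was the single called gene of that list, with means of 110 ± 6.65 CPM in January and 253 ± 32.3 CPM in May (SD, n = 2 pools each, log2 fold change -1.2, SE 0.17, adjusted p = 0.0226, edgeR). Its call was lost without January pool 1 (log2 fold change -1.25, adjusted p = 0.55, edgeR). GJA1, which tanycytes share with astrocytes, had the opposite sign at 0.58.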
